A study of Mus musculus with 6 samples.

Results

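Ribosome biogenesis and RNA polymerase I (Pol I) genes were examined as a list of 45 genes, taken by symbol from the 24063 genes in the count table of mouse liver tumors. The list was written by hand from the known parts of the pathway, with earlier results of these data known, and its rule is the gene symbol alone. All 45 genes passed the filter on low counts, and 13572 genes were tested. All tumors were from male mice of strain C57BL/6 by the labels (the methods of the study give C57BL/6J for its WT mice), which had been given the liver carcinogen diethylnitrosamine (DEN) as pups (25 mg per kg at 15 days old), and were taken at the 24-week time point. There were 3 WT and 3 Nr2e3-/- tumors, the latter from mice lacking the orphan nuclear receptor gene Nr2e3 in the whole body, with 1 RNA-seq library per tumor. Both genotypes had received DEN, and no untreated liver was among the samples. Whether the groups were littermates is not given in the sources used here.

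Ribosomes are assembled in the nucleolus, where Pol I transcribes the ribosomal DNA into a long precursor RNA. Small nucleolar ribonucleoproteins (snoRNPs) modify this precursor, and large processing complexes then cleave and fold it into the small and the large ribosomal subunit. In the liver, the pathway is known to be raised when hepatocytes grow or regenerate, and it is commonly raised in tumors. The 45 genes were placed in 7 roles along this path, from Pol I subunits to large subunit processing. The messenger RNAs of these proteins are made by RNA polymerase II, so none of the values here measures the ribosomal RNA itself.

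Depth ranged from 25250090 to 28690279 counts in the WT libraries, and was 15376261, 28336305 and 19372418 counts in Nr2e3-/- replicates 1, 2 and 3. Nr2e3 had 0 counts in all 6 libraries, so its own counts did not check the genotype labels. Hepatocyte markers such as Alb summed to 163210 to 198448 CPM (counts per 1000000 of the TMM-scaled library) in WT and 159506 to 184490 CPM in Nr2e3-/- tumors, and 5 of 6 pancreas markers were at 0 in every library. The tissue was bulk tumor, so fewer cells of a type and less RNA per cell cannot be told apart. Nr2e3-/- replicate 1 stood apart from the other two Nr2e3-/- libraries in the genes described here, and counts are therefore given with and without it. Since it was singled out on the values of these same genes, the calls made without it describe the remaining 5 libraries and do not support the difference.

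As a group, the 45 genes were at the WT level in Nr2e3-/- replicate 1 and well above it in replicates 2 and 3. Their counts made up 0.137 to 0.143% of all counts in the WT libraries, 0.134% in Nr2e3-/- replicate 1, 0.227% in replicate 2 and 0.226% in replicate 3. Summed CPM was 1338, 1384 and 1299.7 in the WT libraries and 1360.03, 2389.8 and 2364 in Nr2e3-/- replicates 1 to 3. Relative to the WT mean of each gene, the median gene stood at a log2 ratio of 0.07 in replicate 1, 0.84 in replicate 2 and 0.83 in replicate 3.

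**Figure D1:**
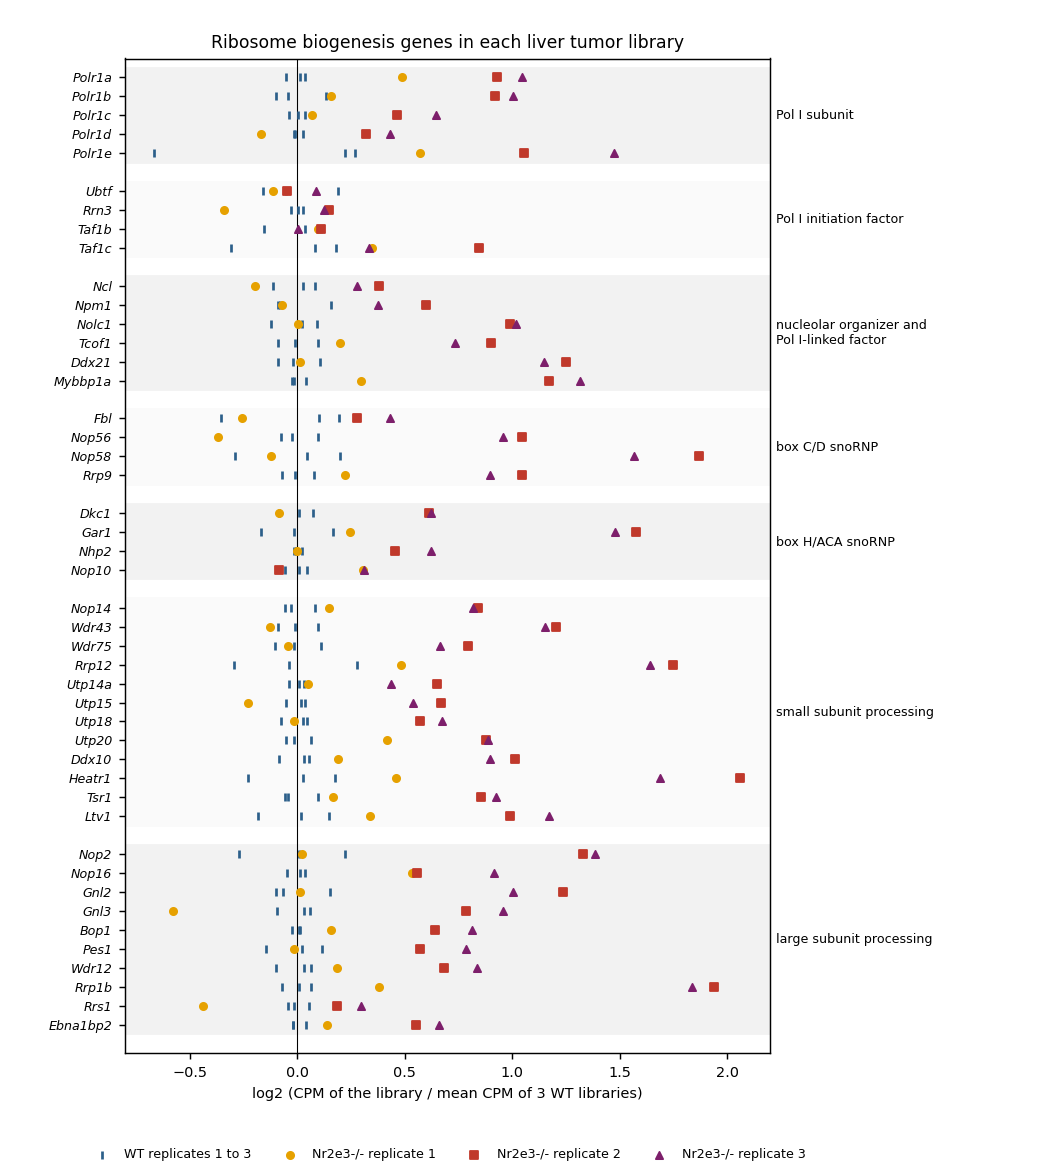
Each of the 45 genes is a row, grouped by role, and the horizontal axis is the log2 ratio of the CPM of a library to the mean CPM of the 3 WT libraries. Blue ticks are the WT libraries and the coloured symbols are the 3 Nr2e3-/- libraries. Replicate 1 lies among or near the WT ticks for most genes. Replicates 2 and 3 each lie to the right of all WT ticks for 43 of the 45 genes. Of all genes tested, 39.3% in replicate 2 and 37.5% in replicate 3 were above all WT libraries.

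Replicate 2 was above all 3 WT libraries for 43 of the 45 genes, where 39.3% of all genes tested were, and replicate 3 for 43 genes as well, where 37.5% of all genes were. Replicate 1 was above all WT libraries for 23 genes, against 32.7% of all genes, within the WT range for 13 and below it for 9. It was the lowest of the 3 Nr2e3-/- libraries for 42 of the 45 genes, and for 38.9% of all genes tested. In replicate 1 the ratio to the WT mean ran from 0.670 (Gnl3) to 1.48 (Polr1e), and no gene reached 2-fold there. In replicates 2 and 3 together, 11 genes were over 2-fold in both (Polr1e, Ddx21, Mybbp1a, Nop58, Gar1, Wdr43, Rrp12, Heatr1, Nop2, Gnl2 and Rrp1b). The share of all genes tested that were over 2-fold in both was not counted, so this number has no background beside it.

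The median SD of log2 CPM over the 45 genes was 0.0863 in WT and 0.405 in Nr2e3-/- tumors, against 0.140 and 0.258 over all genes tested. For 42 of the 45 genes the SD was larger in the Nr2e3-/- group, as it was for 10308 of all 13572 genes tested.

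The edgeR quasi-likelihood fit of all 6 libraries gave a positive log2 fold change (Nr2e3-/- over WT) for 43 of the 45 genes, where 50.8% of all genes were positive. The median was 0.64, against 0.01 over all genes tested, and the values ran from -0.02 (Ubtf) to 1.55 (Heatr1). No gene passed an edgeR adjusted p of 0.05, a threshold that 0.0958% of all genes passed in either direction and 0.0663% as higher. At an unadjusted p under 0.05, 30 genes were higher and 0 lower, where 11.8% of all genes were higher and 9.72% lower. At an adjusted p under 0.10, 3 genes were higher (Polr1a, Utp20 and Nop16), against 1.25% of all genes. The CPM of the 2 groups did not overlap for 22 genes, all higher in Nr2e3-/-, where 13.9% of all genes were higher and 12.9% lower without overlap.

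Other tests of the same 6 libraries made more calls. DESeq2 called 18 of the 45 genes higher at an adjusted p under 0.05, where 4.93% of all genes were called higher and 3.07% lower. With limma-voom and sample quality weights 33 were called higher, where 9.48% of all genes were called higher and 7.91% lower. That fit gave Nr2e3-/- replicate 1 the lowest weight (0.338), against 0.508 and 1.69 for replicates 2 and 3 and 1.26 to 1.67 for WT. Its calls thus rest less on replicate 1 than those of the other tests. Neither tool called any of the 45 genes lower. Without Nr2e3-/- replicate 1, edgeR called 37 of the genes higher and 0 lower, where 12.2% of all genes were called higher and 9.65% lower, and the median log2 fold change was 0.83. The 8 genes not called without that library were Ubtf, Rrn3, Taf1b, Taf1c, Ncl, Fbl, Nop10 and Rrs1.

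**Figure D2:**
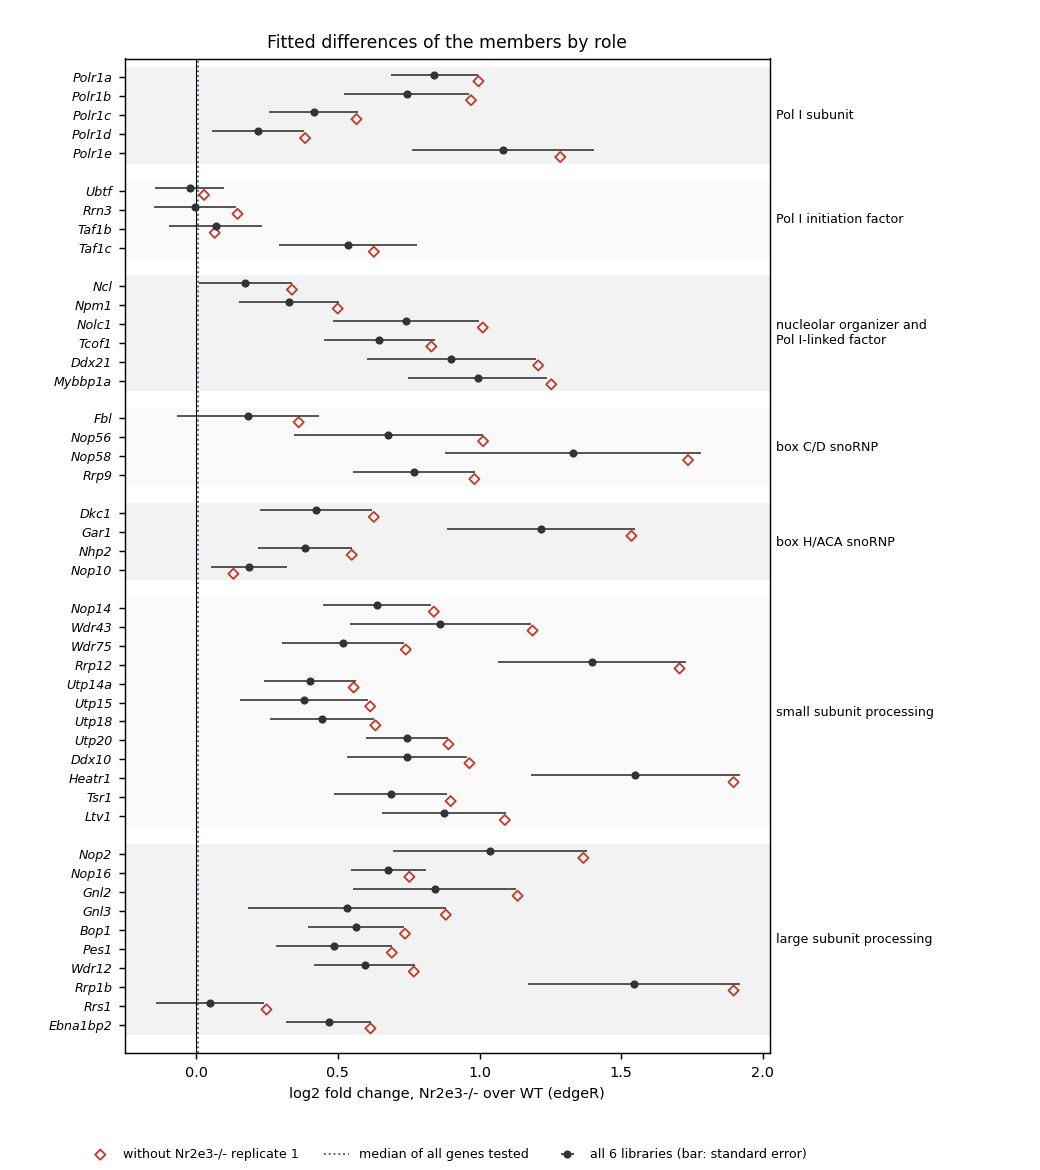
The horizontal axis is the edgeR log2 fold change of Nr2e3-/- over WT for each gene. Black points with standard error bars use all 6 libraries, open red diamonds leave out Nr2e3-/- replicate 1, and the dotted line is the median of all genes tested (0.01). Nearly all points lie to the right of 0, except among the Pol I initiation factors, where Ubtf and Rrn3 sit at 0.

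Subunits of Pol I, which make up the enzyme, were 5 genes with a median log2 fold change of 0.74. At an unadjusted p under 0.05, 4 of them were higher, where 11.8% of all genes were. Polr1a (chr6:71909053-71984935, plus strand, GRCm38) encodes the largest, catalytic subunit. Its CPM was 27.5, 25.8 and 27.0 in the WT libraries and 37.5, 50.9 and 55.3 in Nr2e3-/- replicates 1, 2 and 3. The groups did not overlap, and each Nr2e3-/- library, replicate 1 included, was above every WT library. The log2 fold change was 0.84 (SE 0.15, edgeR adjusted p = 0.0930, n = 3 per group), and an exact two-sided permutation test gave p = 0.1, the smallest that 3 against 3 allows.

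Polr1d (chr5:147077050-147111597, plus strand), a subunit that Pol I shares with Pol III, had the largest p of the 5. It measured 27.1, 26.5 and 26.3 CPM in WT and 23.7, 33.2 and 35.9 CPM in Nr2e3-/- tumors. Replicate 1 was below the WT range and the other two above it, so the groups overlapped, with a log2 fold change of 0.22 (SE 0.16, edgeR adjusted p = 0.452). Polr1b, the second large catalytic subunit, had a log2 fold change of 0.74, Polr1c, which is also shared with Pol III, 0.41, and Polr1e, a subunit involved in initiation, 1.08.

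Factors that bring Pol I to the ribosomal DNA promoter had smaller values, except Taf1c. The median of their log2 fold changes was 0.03 over 4 genes. None had an unadjusted p under 0.05, where 11.8% of all genes were higher, and none was called by DESeq2 or by limma-voom. Whether they differ from the subunits was not tested. Ubtf (chr11:102304560-102319742, minus strand), which binds along the ribosomal DNA and keeps it open, measured 58.5, 69.1 and 54.3 CPM in WT and 56.1, 58.5 and 64.4 CPM in the Nr2e3-/- libraries. All 3 Nr2e3-/- values lay inside the WT range. Its log2 fold change was -0.02 (SE 0.12, edgeR adjusted p = 0.923), and its sign changed when Nr2e3-/- replicate 1 was left out (0.03).

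Rrn3 (chr16:13780708-13814839, plus strand), the factor that links the polymerase to the promoter-bound complex, measured 35.4, 34.8 and 34.0 CPM in WT. In the Nr2e3-/- libraries it was 27.5 CPM in replicate 1, below the WT range, and 38.5 and 37.9 CPM in replicates 2 and 3, above it. These deviations balanced, with a log2 fold change of 0.00 (SE 0.15, edgeR adjusted p = 0.992), and 0.15 without replicate 1. Taf1b and Taf1c are subunits of the promoter selectivity complex. Taf1b had a log2 fold change of 0.07. Taf1c (chr8:119597871-119605222, minus strand), the lowest of the 45 genes per length of the longest principal transcript, measured 2.53, 2.37 and 1.80 CPM in WT and 2.85, 4.01 and 2.81 CPM in Nr2e3-/- tumors. Its groups did not overlap, with a log2 fold change of 0.54 (SE 0.24, edgeR adjusted p = 0.255), but 584 bases of its exons are also exons of Dnaaf1, and the counting is not stated to use strand.

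Nucleolar organizers and factors linked to Pol I, 6 genes, were centred on a log2 fold change of 0.69 (median). At an unadjusted p under 0.05, 4 were higher, where 11.8% of all genes were. Mybbp1a (chr11:72441355-72451768, plus strand) encodes a nucleolar protein that associates with Pol I and with processing complexes. It measured 64.2, 61.7 and 61.2 CPM in WT and 76.6, 141 and 155 CPM in Nr2e3-/- tumors, with replicate 1 just above the WT range and the other two over 2-fold above the WT mean. The log2 fold change was 0.99 (SE 0.25, edgeR adjusted p = 0.116).

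The abundant nucleolar proteins nucleolin and nucleophosmin showed smaller differences. Ncl (nucleolin, chr1:86344719-86359400, minus strand) measured 211, 241 and 232 CPM in WT and 199, 297 and 276 CPM in Nr2e3-/- tumors, with a log2 fold change of 0.17 (SE 0.17, edgeR adjusted p = 0.556). Npm1 (nucleophosmin, chr11:33152287-33163206, minus strand) measured 49.2, 49.5 and 58.3 CPM in WT and 49.8, 79.1 and 67.8 CPM in Nr2e3-/- tumors, with a log2 fold change of 0.33 (SE 0.18, edgeR adjusted p = 0.320). In both genes the groups overlapped through replicate 1. Npm1 has processed copies in the genome, with which its reads may be shared. Among the others, the RNA helicase Ddx21 had a log2 fold change of 0.90, Nolc1, a chaperone of snoRNPs, 0.74, and Tcof1 (treacle, which supports transcription of ribosomal DNA) 0.65.

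**Figure D3:**
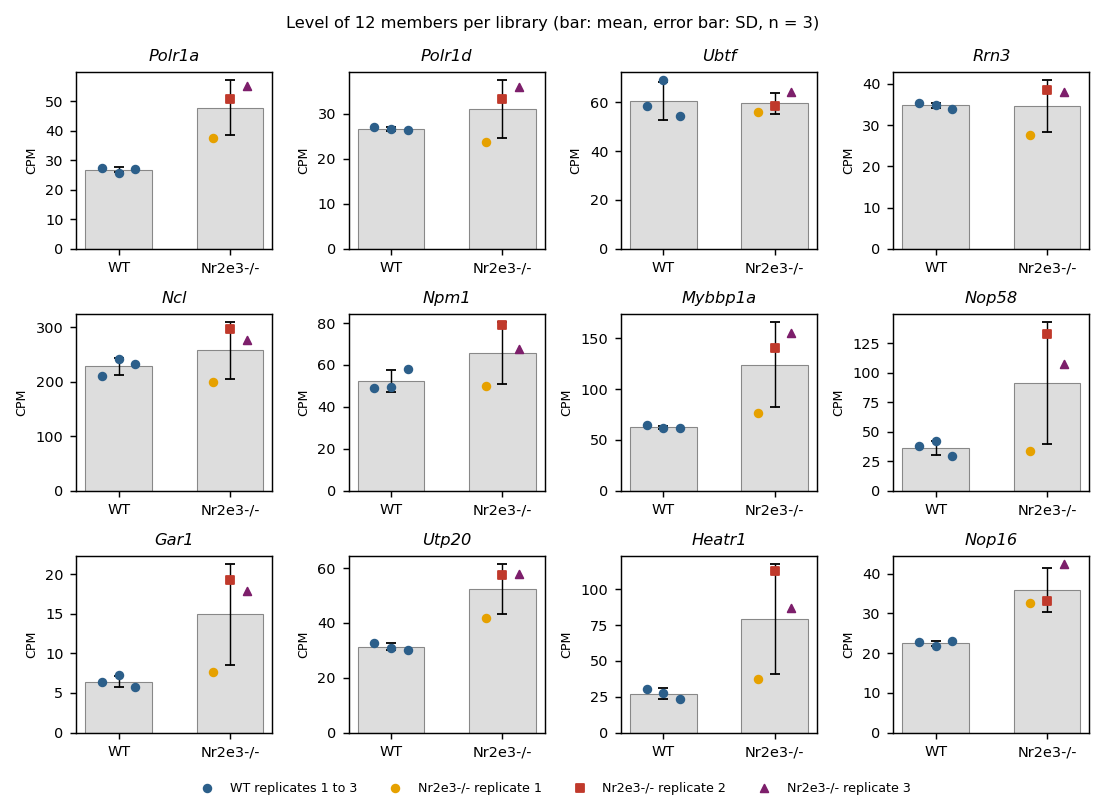
CPM of 12 of the genes in each library, with grey bars for the group mean, error bars for the SD (n = 3) and 1 symbol per library. In Polr1a, Utp20, Nop16, Mybbp1a, Gar1 and Heatr1 all Nr2e3-/- symbols are above the WT symbols, in Nop58 replicate 1 is inside the WT range, and in Ubtf the groups fully overlap.

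Proteins of the box C/D snoRNPs, most of which guide methylation of ribosomal RNA, were 4 genes whose log2 fold changes had a median of 0.72 and a wide range. Nop58 (chr1:59684971-59719044, plus strand), 1 of the core scaffold proteins, measured 37.5, 41.7 and 29.7 CPM in WT and 33.3, 133 and 108 CPM in Nr2e3-/- tumors. Replicate 1 was inside the WT range, and replicates 2 and 3 were 3.65-fold and 2.97-fold the WT mean. The fitted difference was 1.33 (log2, SE 0.45, edgeR adjusted p = 0.169).

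Its partner Nop56 had a log2 fold change of 0.68. Rrp9 (chr9:106475963-106485424, plus strand), a specific protein of the snoRNP that guides early cleavage of the precursor, measured 9.64, 9.07 and 8.70 CPM in WT and 10.7, 18.9 and 17.0 CPM in Nr2e3-/- tumors. Its groups did not overlap (log2 fold change 0.77, SE 0.21, edgeR adjusted p = 0.132). Fbl (fibrillarin, the methyltransferase itself, chr7:28169710-28179269, plus strand) measured only 2.73, 3.99 and 3.75 CPM in WT and 2.91, 4.23 and 4.70 CPM in Nr2e3-/- tumors. Its groups overlapped, with a log2 fold change of 0.18 (SE 0.25, edgeR adjusted p = 0.688).

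The box H/ACA snoRNPs, which convert uridine to pseudouridine, were represented by their 4 core proteins, and the median of their log2 fold changes was 0.40. Gar1 (chr3:129824912-129831396, minus strand) differed most. It measured 6.37, 7.21 and 5.72 CPM in WT and 7.61, 19.2 and 17.9 CPM in Nr2e3-/- tumors, without overlap (log2 fold change 1.22, SE 0.33, edgeR adjusted p = 0.130). Dkc1 (dyskerin, the pseudouridine synthase) had a log2 fold change of 0.42 and Nhp2 0.38. Nop10 (chr2:112261926-112263269, plus strand) had a different order of libraries, with 27.9, 26.6 and 28.6 CPM in WT, 34.2 and 34.3 CPM in Nr2e3-/- replicates 1 and 3, and 26.1 CPM in replicate 2, below the WT range. Its log2 fold change was 0.19 (SE 0.13, edgeR adjusted p = 0.438).

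Small subunit processing factors were the largest role, with a median log2 fold change of 0.72. Of the 12 genes, 12 were above 0, 11 were higher at an unadjusted p under 0.05, and 8 were higher without overlap of the groups. Of all genes tested, 50.8% were above 0, 11.8% were higher at that p, and 13.9% were higher without overlap. Utp20 (chr10:88746607-88826804, minus strand), a component of the small subunit processome, measured 32.7, 31.0 and 30.1 CPM in WT and 41.8, 57.4 and 57.9 CPM in Nr2e3-/- tumors. Every Nr2e3-/- library was above the WT range (log2 fold change 0.74, SE 0.15, edgeR adjusted p = 0.0930).

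Heatr1, Rrp1b and Rrp12 had the largest log2 fold changes of all 45 genes and were picked for that after their values had been seen. Heatr1 (chr13:12395027-12440289, plus strand), which acts in the processome and in transcription of the precursor, measured 30.5, 27.5 and 23.1 CPM in WT and 37.1, 113 and 87.1 CPM in Nr2e3-/- tumors. The groups did not overlap, although replicate 1 was much closer to WT than to the other two, and the log2 fold change was 1.55 (SE 0.37, edgeR adjusted p = 0.111). Rrp12, which acts in processing and export of the subunits, had a log2 fold change of 1.40, and Rrp1b, a nucleolar factor of the large subunit, 1.54.

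Within the same role, Tsr1 (chr11:74898071-74909342, plus strand), which acts late in small subunit maturation, had the highest CPM. It measured 80.6, 73.1 and 72.3 CPM in WT and 84.5, 136 and 143 CPM in Nr2e3-/- tumors (log2 fold change 0.69, SE 0.20, edgeR adjusted p = 0.137). Its exons overlap those of Srr by 1240 bases, so part of these counts may belong to Srr. Utp15 (chr13:98246845-98263041, minus strand), of the processome subcomplex that is linked to transcription, had the largest p of the role. It measured 13.5, 12.9 and 13.7 CPM in WT and 11.4, 21.2 and 19.4 CPM in Nr2e3-/- tumors, with replicate 1 below the WT range (log2 fold change 0.38, SE 0.23, edgeR adjusted p = 0.356). The other genes of this role, Rrp12 aside, had log2 fold changes between 0.40 (Utp14a) and 0.88 (Ltv1, a late small subunit factor).

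Large subunit processing factors, 10 genes, lay around a median of 0.58 on the log2 scale. At an unadjusted p under 0.05, 8 of these were higher, where 11.8% of all genes were. Nop16 (chr13:54584185-54590090, minus strand), a nucleolar factor of the large subunit precursor, was 1 of the few genes in which replicate 1 was as high as replicate 2. It measured 22.7, 21.8 and 23.0 CPM in WT and 32.6, 33.0 and 42.4 CPM in Nr2e3-/- tumors, without overlap (log2 fold change 0.68, SE 0.13, edgeR adjusted p = 0.0930).

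Gnl3 (nucleostemin, a nucleolar GTPase, chr14:31012433-31019152, minus strand) measured 52.2, 57.0 and 58.0 CPM in WT and 37.3, 96.1 and 108 CPM in Nr2e3-/- tumors. The 3 Nr2e3-/- libraries thus lay on both sides of the WT range, with a log2 fold change of 0.53 (SE 0.35, edgeR adjusted p = 0.402). Rrs1 (chr1:9545408-9547455, plus strand), an assembly factor of the large subunit, measured 26.8, 28.7 and 27.3 CPM in WT and 20.3, 31.3 and 33.9 CPM in Nr2e3-/- libraries. The log2 fold change of Rrs1 was 0.05 (SE 0.19, edgeR adjusted p = 0.895). The 3 partners of the complex formed by Pes1, Bop1 and Wdr12 had log2 fold changes of 0.49, 0.56 and 0.59, the rRNA methyltransferase Nop2 1.04, the GTPase Gnl2 0.84 and Ebna1bp2 0.47.

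Levels can be compared between genes only per length of transcript. Where a gene had several principal transcripts, the longest was used, which was 8202 bases for Ncl and 10012 bases for Wdr12. The order below rests on that choice, and other transcripts were not tried. By CPM per kilobase of that transcript, Npm1 was highest in WT tumors with 32.0. It was followed by Gnl3 with 28.6 and Ncl with 27.8, and Taf1c was lowest with 0.691. On the same scale Nop58 had the highest mean of the Nr2e3-/- tumors with 53.2, having been at 21.2 in WT. That mean rests on replicates 2 and 3 (133 and 108 CPM), since Nop58 was at 33.3 CPM in replicate 1, inside the WT range. Exons of 18 of the 45 genes overlap another annotated gene, by 5 to 1240 bases.

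Promoters of the pathway were inspected for the E-box letters CACGTG, which MYC and related factors are known to bind, and for the GC box GGGCGG of the SP1 family, since the title of the series names Sp1 and Myc. CACGTG reads the same on both strands, and GGGCGG was searched on both strands. RefSeq promoters of GRCm38.p6, 250 bases before to 50 after each start, were found for 38 of the 45 genes (47 promoters). Npm1, Tcof1, Fbl, Rrp12, Gnl2, Bop1 and Rrs1 were not among them. CACGTG was in 9 of the 47 promoters (19.1%), against 9.71% of the promoters of genes tested and 7.15% of all 32851 promoters of the same length. The GC box was in 33 of the 47 (70.2%), against 59.8% and 35.7%. The windows of 5 genes, with CACGTG in capitals and 5′ to 3′ on the strand of the gene, are shown because they span roles and sizes of difference.
Nop2, chr6:125131811-125131840, plus strand: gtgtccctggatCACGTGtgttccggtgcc
Mybbp1a, chr11:72441355-72441376, plus strand: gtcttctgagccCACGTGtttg
Utp20, chr10:88826765-88826789, minus strand: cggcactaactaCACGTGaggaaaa
Utp18, chr11:93885769-93885798, minus strand: gcgagcgccggtCACGTGgcttgcggcggc
Wdr43, chr17:71616220-71616249, plus strand: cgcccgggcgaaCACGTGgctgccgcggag

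Rrn3, whose difference was 0.00, held CACGTG at 2 places of its promoter. The 250 bases before its start are shown for that reason, with both motifs in capitals.
Rrn3, chr16:13780449-13780698, plus strand: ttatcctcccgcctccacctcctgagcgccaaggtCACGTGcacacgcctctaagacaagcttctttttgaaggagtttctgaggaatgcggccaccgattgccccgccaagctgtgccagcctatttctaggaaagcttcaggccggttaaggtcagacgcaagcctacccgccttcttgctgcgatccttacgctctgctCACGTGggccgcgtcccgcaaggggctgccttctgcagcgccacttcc

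The 9 genes with CACGTG (Nop2, Ltv1, Utp20, Pes1, Mybbp1a, Tsr1, Utp18, Rrn3 and Wdr43) had a median of 0.74 on the log2 scale, with 8 at an unadjusted p under 0.05, where 11.8% of all genes were higher. The 29 genes with a promoter entry and without CACGTG had a median of 0.59, with 18 at an unadjusted p under 0.05, and Heatr1, the gene with the largest difference, was among them. These matches describe letters in the window and are not binding data.

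Other genes of ribosome biogenesis, 135 genes in 5 lists that are not among the 45, differed in the same direction with smaller values. Of the 134 tested, 128 were above 0, where 50.8% of all genes were, and the median log2 fold change was 0.38. At an unadjusted p under 0.05, 60 were higher and 0 lower, against 11.8% and 9.72% of all genes. No gene was called by edgeR at an adjusted p under 0.05. DESeq2 called 21 higher, where 4.93% of all genes were called higher. With limma-voom 63 were called higher and 1 lower, against 9.48% and 7.91% of all genes. Without Nr2e3-/- replicate 1, edgeR called 75 higher and 1 lower, against 12.2% and 9.65% of all genes.

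The medians were 0.39 for other small subunit factors (42 genes, 21 at an unadjusted p under 0.05), 0.44 for other large subunit factors (49 genes, 26), 0.44 for snoRNP assembly factors (9 genes, 5), 0.32 for the RNA exosome and RNase MRP (22 genes, 5) and 0.24 for other Pol I and ribosomal DNA factors (12 genes, 3). Of all genes tested, 11.8% were higher at that p. The genes with the smallest p in these lists were Ngdn, Pno1 and Nol6 of the small subunit (log2 fold changes 0.72, 0.44 and 0.61), Nol8, Cebpz and Nvl of the large subunit (1.08, 0.64 and 0.54), and Ruvbl1, Shq1 and Naf1 of snoRNP assembly (0.59, 0.81 and 0.72). Among exosome and RNase MRP genes they were Pop1, Exosc3 and Exosc1 (1.05, 0.60 and 0.76), and among other Pol I factors Rrp8, Znrd1 and Smarca5 (0.67, 0.45 and 0.46).

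Genes for the ribosomal proteins themselves differed less. Of 74 cytosolic ribosomal protein genes tested, 61 were above 0, where 50.8% of all genes were, and their median was 0.16 (log2 fold change). At an unadjusted p under 0.05, 11 were higher, near the 11.8% of all genes that were. Rpl27a (0.58), Rpl13 (0.44) and Rplp1 (0.31) had the smallest p. Without overlap of the groups 23 were higher and 0 lower, against 13.9% and 12.9% of all genes. The summed CPM of the ribosomal protein genes was 2994 to 3178 in WT and 3185, 3784 and 3653 in Nr2e3-/- replicates 1 to 3. Many of them have processed copies in the genome, which may share reads. Pol III genes had a median of 0.11 over 22 genes, with Polr3d (1.02) above 0 and Brf1 (-0.37) below. At an unadjusted p under 0.05, 3 were higher and 2 lower, near the 11.8% and 9.72% of all genes. The core subunits of Pol II also had a median of 0.11 (12 genes, 0 at an unadjusted p under 0.05), with Polr2d (0.39), Polr2l (0.39) and Polr2f (0.20) having the smallest p.

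**Figure D4:**
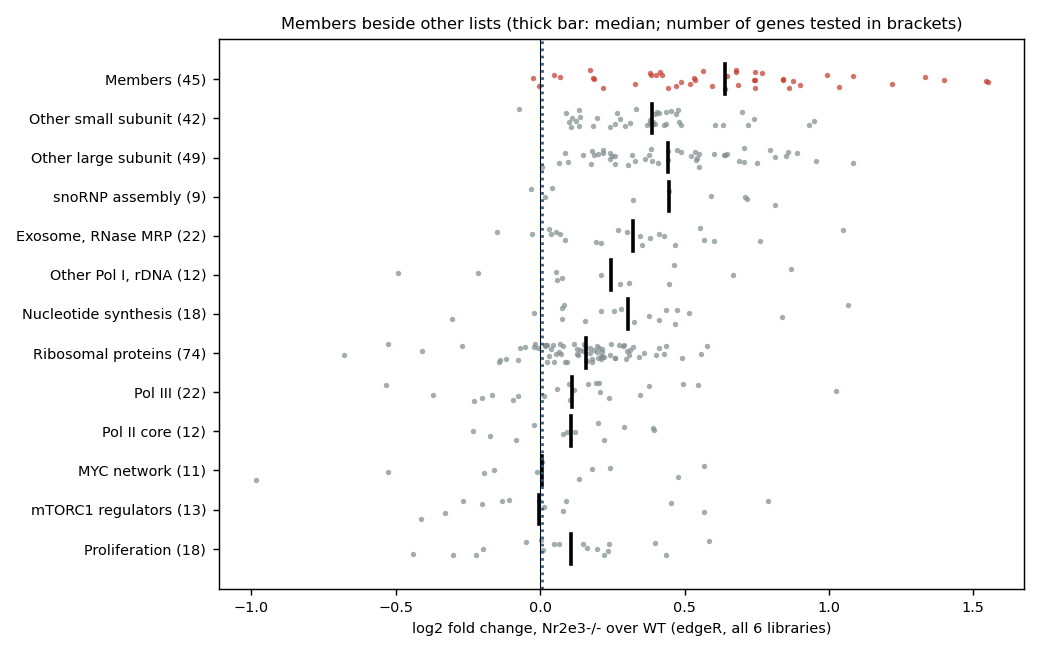
Each point is 1 gene and the horizontal axis is its edgeR log2 fold change of Nr2e3-/- over WT with all 6 libraries. Thick bars are the medians of the lists, numbers in brackets are genes tested, and the dotted line is the median of all genes (0.01). The 45 genes (red) have the highest median (0.64) of the lists drawn, other processing lists lie between 0.32 and 0.44, and MYC network and mTORC1 regulator genes have medians near 0.

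Regulators of the pathway were counted from lists of their own. The 11 genes of the MYC network had a median of 0.01 (log2 fold change). Mnt (0.57) and Max (0.48) were higher at an unadjusted p under 0.05, where 11.8% of all genes were, and Mlx was at 0.18. Myc, a transcription factor known to drive ribosome biogenesis, measured 6.34, 6.26 and 8.39 CPM in WT and 1.19, 8.98 and 4.06 CPM in Nr2e3-/- tumors. The groups overlapped (log2 fold change -0.53, edgeR adjusted p = 0.611), with replicates 1 and 3 below the WT range and replicate 2 above it. The 45 genes summed to 1300 to 1384 CPM in WT and to 1360, 2390 and 2364 CPM in Nr2e3-/- replicates 1 to 3. Whether Myc had a part in their differences was not tested. The mTORC1 regulators (13 genes) had a median of -0.01, with Rheb (0.45) and Ddit4 (0.79) above 0 and Mtor (-0.33) below among those with the smallest p.

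Proliferation genes did not differ at an unadjusted p under 0.05 in any of 18 genes tested, with a median log2 fold change of 0.11. Mki67, a marker of cycling cells, measured 9.45, 4.94 and 4.44 CPM in WT and 2.52, 12.9 and 3.03 CPM in Nr2e3-/- tumors (log2 fold change 0.00, edgeR adjusted p = 0.998). Mki67 was thus below the WT range in replicates 1 and 3 and above it in replicate 2. The 18 genes together summed to 149 to 184 CPM in WT and to 121, 215 and 140 CPM in Nr2e3-/- replicates 1 to 3. Whether proliferation had a part in the differences of the 45 genes was not tested. The smallest p values of the list were those of Aurka (-0.44), Pcna (0.20) and Mcm2 (-0.30).

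Markers of other cell types were summed in each library, and the neutrophil markers were ordered like the 45 genes. The 2 of 8 neutrophil markers that passed the filter on low counts were S100a8 and S100a9, which together summed to 1.35 to 2.57 CPM in WT, 1.99 CPM in Nr2e3-/- replicate 1, 18.3 CPM in replicate 2 and 11.5 CPM in replicate 3. Mpo, Elane, Retnlg, Camp and Ngp did not pass it. Bile duct markers, 6 of 7 tested, summed to 68.6 to 128 CPM in WT and to 82.7, 439 and 196 CPM in Nr2e3-/- replicates 1 to 3, mainly through Spp1. The median bile duct marker did not follow that order, with log2 ratios to its WT mean of 0.14, -0.21 and 0.47 in replicates 1, 2 and 3. Macrophage markers, 8 of 8 tested, summed to 305 to 388 CPM in WT and to 265, 685 and 348 CPM in Nr2e3-/- tumors, where replicate 3 was inside the WT range. Stellate cell markers summed to 211 to 307 CPM in WT and to 262, 165 and 116 CPM in Nr2e3-/- replicates 1 to 3. Replicates 2 and 3 were thus below the WT range and replicate 1 inside it. Endothelial markers summed to 342 to 356 CPM in WT and 300 to 360 CPM in Nr2e3-/- tumors. For lymphocyte markers the sums were 3.49 to 9.30 and 2.70 to 5.83 CPM, and for 4 red cell markers 129 to 180 and 208 to 287 CPM. Liver tumor markers (191 to 777 and 152 to 431 CPM) completed the lists. The part of cell composition, and of the lower depth of Nr2e3-/- replicate 1, in the differences of the 45 genes was not tested, and each of these genes had at least 43 counts in every library.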

How the data were processed

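RNA-seq libraries of 3 WT and 3 Nr2e3-/- DEN-induced liver tumors were grouped by the genotype in their titles. The authors prepared TruSeq libraries, aligned single-end reads to mm10 (GRCm38) with TopHat and counted them per gene with featureCounts, and the deposited table holds raw counts. The deposited normalized table (counts scaled by library) and the comparison table of the authors (log2 fold changes and p-values from DESeq2) were not used. The annotation and the strand setting of the counting are not given in the sources used here.

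Low counts were removed by filterByExpr at its defaults (10 counts per library, 15 in total), and TMM factors were applied. The two-sided quasi-likelihood F test of edgeR 4.0.16 in R 4.3.3 was used, with Benjamini-Hochberg adjustment over all 13572 genes tested. SE is the absolute log2 fold change divided by the square root of F. CPM uses effective library sizes. DESeq2 1.42.0 and limma 3.58.1 were alternatives. No 2 libraries were copies of each other. P-values weigh the difference between the genotypes against the spread between tumors of a group, which edgeR estimates with information shared across genes. Positions, exon overlaps and lengths of principal transcripts (the longest per gene) came from GENCODE M21. The steps were tested on simulated data. Figures used Python 3.11.15 and matplotlib 3.10.9.

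The 45 genes, all lists and the naming rule were chosen with earlier results of these data known, and no set test was run. Values in every library were given for Polr1a, Ncl, Npm1 and Fbl, for any gene called, and per role for the genes with the smallest p, the largest p and the highest CPM. From other lists up to 3 genes with the smallest p were named, plus Myc and Mki67. The values of 1 gene that this rule names are not reported here. Same-numbered WT and Nr2e3-/- libraries had correlations of their deviations of -0.08, 0.22 and 0.02, so the numbers were not taken as pairs.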

Additional observations from a re-analysis of the deposited data

How the results depend on the processing

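The median difference of the 45 genes (log2) stayed positive in every alternative, from 0.54 with upper quartile normalization to 0.72 with limma-voom, and from 0.53 to 0.83 when each library was left out in turn. The number of the 45 genes called depended on the test and on 1 library. It was 0 in the edgeR fit of all libraries, 18 with DESeq2 and 33 with limma-voom. In edgeR it was 3 at an adjusted p under 0.10, 30 at an unadjusted p under 0.05 and 0 at an unadjusted p under 0.0005. The study applied that last threshold to DESeq p-values, so the 0 of edgeR is not a count by the study's own test. With DESeq2, Polr1a had an adjusted p of 0.000498, so its unadjusted p there was under 0.0005. In edgeR the number was 0 to 37 when each library was left out, 37 being the value without Nr2e3-/- replicate 1. Other ribosome biogenesis genes called numbered 0, 21 with DESeq2, 64 with limma-voom and 0 to 76 when each library was left out (76 without Nr2e3-/- replicate 1). Over all genes, 13 were called, 7 with 10 counts required in every library, 1096 with DESeq2, 2360 with limma-voom, 70 without the low-count filter, 8 with upper quartile normalization, and 0 to 3022 when each library was left out (3022 without Nr2e3-/- replicate 1, 18 without Nr2e3-/- replicate 2, 2 without WT replicate 2 and 0 without any other). The cause of these changes was not tested. Counts chosen after seeing the data were genes at an unadjusted p under 0.05 (30, and 18 to 40 when each library was left out), genes above 0 (43, and 42 to 45) and genes without overlap (22, and 22 to 42). With all libraries, 11.8% of all genes were higher at that p, 50.8% were above 0 and 13.9% were higher without overlap. The shares of all genes with a library left out are not given here, so those ranges have no background beside them.

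With the replicate number as a block, 0 of the 45 genes and 0 genes in all were called, and the median was 0.57. In that fit 24 of the 45 were at an unadjusted p under 0.05, and the share of all genes at that p is not given here. The correlations of same-numbered libraries were -0.08, 0.22 and 0.02, and those of differently numbered libraries ran from -0.26 to 0.22. The titles give only a number, and these correlations cannot tell whether same-numbered libraries share anything more.

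Signs changed in 4 genes near 0, Ubtf, Rrn3, Taf1b and Rrs1, and in no other gene of the 45 under the alternatives run. Ubtf was at 0.0259 with limma-voom and ran from -0.100 to 0.0815 when each library was left out. Rrn3 was at 0.00771 with DESeq2, 0.0699 with limma-voom and 0.00367 without the low-count filter, and ran from -0.0845 to 0.146 when each library was left out. With upper quartile normalization Taf1b was at -0.0162 and Rrs1 at -0.0451, and Rrs1 ran from -0.0879 to 0.248 when each library was left out. With 3 tumors per group, differences well under the spread of the Nr2e3-/- libraries were not detectable.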

Other observations

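Genes of nucleotide synthesis, which supply the building blocks of ribosomal RNA, were above 0 in 16 of 18 cases, with a median log2 fold change of 0.30. At an unadjusted p under 0.05, 9 were higher and 1 lower, where 11.8% of all genes were higher and 9.72% lower. None passed an edgeR adjusted p of 0.05. The genes with the smallest p are given here. Prps1, which makes the ribose phosphate donor, measured 28.5, 27.2 and 28.0 CPM in WT and 34.2, 39.7 and 39.4 CPM in Nr2e3-/- tumors. Adsl, of purine synthesis, measured 13.6, 14.7 and 13.5 CPM in WT and 18.9, 20.8 and 18.2 CPM in Nr2e3-/- tumors. Cad, of pyrimidine synthesis, measured 21.4, 16.2 and 14.1 CPM in WT and 34.3, 23.8 and 34.4 CPM in Nr2e3-/- tumors, where the lowest Nr2e3-/- value was that of replicate 2.

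Genes of nucleolar stress and p53 signaling had a median log2 fold change of -0.03 over 10 genes. At an unadjusted p under 0.05, 3 were higher and 2 lower, where 11.8% of all genes were higher and 9.72% lower. Cdkn1a, the cell cycle inhibitor p21, measured 11.9, 11.5 and 7.46 CPM in WT and 14.6, 23.6 and 26.8 CPM in Nr2e3-/- tumors (log2 fold change 1.08, edgeR adjusted p = 0.117). Trp53 measured 17.4, 15.7 and 15.4 CPM in WT and 18.5, 26.7 and 28.6 CPM in Nr2e3-/- tumors (log2 fold change 0.61, edgeR adjusted p = 0.136). Cdkn2a was on the other side, at 1.18 CPM or more in each WT library and 0.780 CPM or less in each Nr2e3-/- library, with a log2 fold change of -0.97 (edgeR adjusted p = 0.130).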
